A study of Mus musculus with 32 samples.

Results

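Immature dendritic cells (iDCs) and IL-4-treated macrophages were compared in bone marrow cultures of 4 Pparg fl/- LysCre mice that received vehicle only. The comparison takes every array whose labels give this genotype and the control treatment, which is 8 of the 32 arrays of the series, 4 of iDCs and 4 of macrophages. The mice are numbered 5 to 8, are of the C57Bl/6 strain, and each gave 1 array of either cell type. Their age is not given in the labels. They carry a loxP-flanked and a null Pparg allele and a Cre transgene under the lysozyme promoter, which is active in myeloid cells. Both cultures ran for 9 days with 20 ng/ml IL-4, and differed in the growth factor, 20 ng/ml M-CSF for macrophages and 20 ng/ml GM-CSF for iDCs. Mice 1 to 4 of the Pparg+/- LysCre genotype, which keep a functional allele and carry the null allele and the same transgene, gave another 8 vehicle arrays of the same layout. The RSG arrays of mice 5 to 8, treated with 1 uM rosiglitazone, share the normalization and the estimate of spread with the vehicle arrays, and their own cell type differences are set beside the same genes at the end. The question addressed is which differences between the cell types are present in cells of the genotype made to delete Pparg. How far Pparg was lost in either culture was not tested here.

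PPARg is a nuclear receptor that binds fatty acid derivatives and turns on genes of lipid uptake and storage, and IL-4 raises its expression in macrophages and dendritic cells through STAT6. M-CSF and GM-CSF drive the same bone marrow precursors to different cells. M-CSF acts through a receptor tyrosine kinase and gives macrophages, which clear debris and microbes, while GM-CSF acts through JAK2 and STAT5 and, with IL-4, gives cells that take up antigen and present it to T cells.

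Digoxigenin-labeled cRNA was hybridized to single-color arrays read by chemiluminescence, and values below are log2 of the deposited signal after quantile normalization over all 32 arrays. A probe was detected where its signal was at least 3 times its noise (S/N). Macrophage arrays of mice 5 to 8 had 15293, 15650, 16009 and 15879 detected probes, and iDC arrays 14568, 14190, 15451 and 15710. The iDC array had fewer in each of the 4 mice, by 728 on average (exact permutation p = 0.143, two-sided, n = 4 arrays against 4, for which 0.0286 is the smallest possible p; paired exact p = 0.125 over the 4 mice). Pearson's r across probes was 0.950 to 0.979 between arrays of a group and 0.882 to 0.924 between cell types. Only 319 of 33012 probes (0.966%) could be given a gene symbol, so most results stand under array identifiers. None of the 25 dendritic cell markers or 27 macrophage markers searched had a probe with a symbol, and neither had Pparg, so the cell type and genotype labels were not checked against these genes.

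Mouse 5 stood apart from the other 3 Pparg fl/- mice and lay nearer to the mean of the Pparg+/- mice than to theirs. Each mouse was placed on a scale from 0, the mean of the Pparg+/- mice, to 1, the mean of the other 3 Pparg fl/- mice, over the probes whose cell type difference was called between genotypes in the fit without that mouse. Mouse 5 lay at 0.264, and mice 6, 7 and 8 lay at 0.965, 1.09 and 1.09. Over the probes used for mouse 5 the 4 Pparg+/- mice had -0.0568 to 0.0333, but they set the 0 and helped to choose the probes. Their range is therefore narrow by construction, and whether mouse 5 differed from them was not tested. On the same kind of scale for single arrays, macrophages of mouse 5 lay at 0.0914 and its iDCs at 0.267, against 0.883 to 1.18 for the macrophages and 1.02 to 1.07 for the iDCs of mice 6, 7 and 8. Whether Pparg was deleted in mouse 5 was not tested, since no Pparg probe had a symbol, and its label was kept. Counts and described genes called between genotypes are therefore given with and without mouse 5. The plot of positions and of calls without each mouse shows both.

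**Figure D1:**
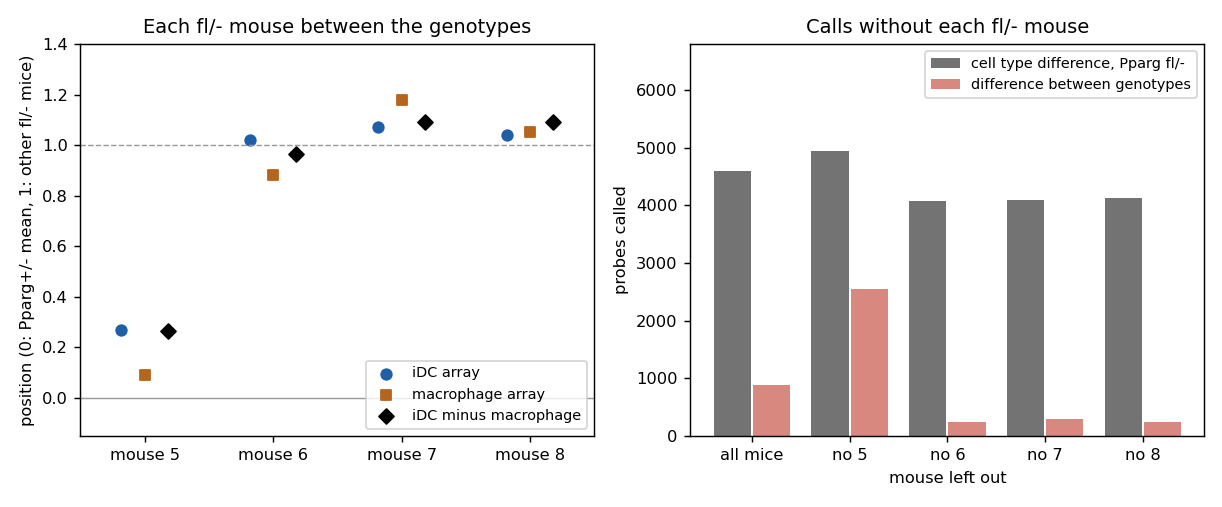
Left, the position of the iDC array (circles), the macrophage array (squares) and the iDC minus macrophage difference (diamonds) of each Pparg fl/- mouse on a scale without units from the Pparg+/- mean (0) to the mean of the other 3 fl/- mice (1). Right, the number of probes called with all mice and without each of mice 5 to 8, for the cell type difference in Pparg fl/- cells (grey) and its difference between genotypes (red). Mouse 5 lies between 0.0914 and 0.267 in the 3 measures, and leaving it out raises the calls between genotypes from 888 to 2556.

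Among 16620 tested probes, 4588 (27.6%) were called between iDCs and macrophages of Pparg fl/- mice, which needed a change of 1.5-fold or more and a limma p that stayed under 0.05 after Benjamini-Hochberg adjustment. Of these, 2062 were higher and 2526 lower in iDCs. The split depended on the scaling: with each array scaled by its median, 1663 were higher and 3352 lower, and the median difference over all probes moved from -0.06 to -0.20. At least 8-fold differences were found for 409 probes, of which 249 were higher and 160 lower in iDCs. All 4 iDC values lay above all 4 macrophage values for 2418 probes (14.5%) and below them for 3061 (18.4%). In these bulk samples a lower level may be fewer cells of a type or less RNA per cell, which cannot be told apart. With mouse 5 left out, 4947 probes (29.8%) were called, among them 4144 (90.3%) of the 4588. The limma p-values treat the arrays of a mouse as independent unless the block is named. With the mouse as a block and all mice kept, 4908 probes were called, among them 4560 of the 4588.

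Of the 163 tested probes with a symbol, 43 were called (26.4%), close to the share over all probes. In iDCs 18 were higher and 25 lower, against 12.4% higher and 15.2% lower over all probes. The direction was the same in all 4 mice for 17 of the 18 and for all 25, with Lst1 as the exception. The lists of genes prepared for these cells held few named probes, and their counts are given beside their members below.

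The genes with the largest rises in iDCs were H2-Q8 of antigen presentation and Ramp3, a partner of peptide hormone receptors. H2-Q8 encodes a nonclassical MHC class I protein. Its macrophage levels in mice 5 to 8 were 10.46, 12.55, 13.44 and 13.09, and its iDC levels were 15.41, 16.01, 16.01 and 15.48. The groups did not overlap, and macrophages of mouse 5 were the lowest. The mean rose from 12.39 ± 1.34 to 15.73 ± 0.33 (SD, n = 4), which is 10.1-fold (log2 difference 3.34 ± 0.62 SE, limma adjusted p = 9.5e-05). The probe was detected on 3 of 4 macrophage arrays, so this size rests in part on a level below detection. Without mouse 5 the difference was 2.81 (limma adjusted p = 3.4e-07). Its relative H2-Q7 was bright in both cell types, from 18.71 to 19.33 in macrophages and from 19.3 to 19.55 in iDCs, with groups that overlapped and a difference of 0.44 that did not reach 1.5-fold (limma adjusted p = 0.025). Genes of the H2-Q family are near copies of each other, so each of these probes may read several. Of the 30 genes listed for MHC class II and antigen presentation these were the 2 tested, and 1 was called higher.

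Ramp3 encodes a membrane protein that pairs with the calcitonin receptor-like receptor and shapes its response to adrenomedullin. Its levels were 10.74, 11.15, 10.82 and 11.45 in macrophages and 14.32, 13.88, 13.86 and 14.12 in iDCs. This 8.0-fold rise kept the groups far apart (3.00 ± 0.26 SE, limma adjusted p = 6.9e-10). Ramp1, which pairs with the same receptor to form the receptor of calcitonin gene-related peptide, was also called, with levels of 7.41, 7.57, 7.03 and 6.99 in macrophages and 9.18, 8.99, 9.4 and 7.26 in iDCs. It was detected on 1 of 4 macrophage arrays and 3 of 4 iDC arrays, and the iDC value of mouse 8 lay among the macrophage values (difference 1.46 ± 0.42 SE, limma adjusted p = 0.0068; 0.085 without mouse 7).

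Stat5a, which carries the signal of the GM-CSF receptor to the nucleus, had levels of 12.28, 12.19, 12.17 and 12.26 in macrophages and 13.48, 13.48, 13.68 and 13.67 in iDCs. Replicates lay within 0.2 of each other, and the rise was 2.55-fold (1.35 ± 0.12 SE, limma adjusted p = 5.5e-10). The probe of its paralog Stat5b ranged from 11.99 to 12.11 in macrophages and from 12.14 to 12.42 in iDCs, a difference of 0.20 ± 0.09 SE that was not called (limma adjusted p = 0.092). Lrrk1, a leucine-rich repeat kinase, had levels of 12.16, 11.99, 11.93 and 12.04 in macrophages and 13.46, 13.31, 13.48 and 13.69 in iDCs and was 2.74-fold higher (1.46 ± 0.11 SE, limma adjusted p = 4.9e-11). Akap7, an anchor for protein kinase A, was 2.43-fold higher (1.28 ± 0.35 SE, limma adjusted p = 0.0051), with levels of 10.88, 11.91, 12.38 and 11.52 in macrophages and 12.5, 13.02, 13.63 and 12.66 in iDCs. Within scan days 3 and 4 alone it was not called (1.36 and 1.2, limma adjusted p = 0.059 and 0.092). Pdxp, a phosphatase that acts on pyridoxal phosphate and cofilin, was 3.77-fold higher, from 8.58 to 9.52 in macrophages and from 10.0 to 11.83 in iDCs (limma adjusted p = 5.2e-05).

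**Figure D2:**
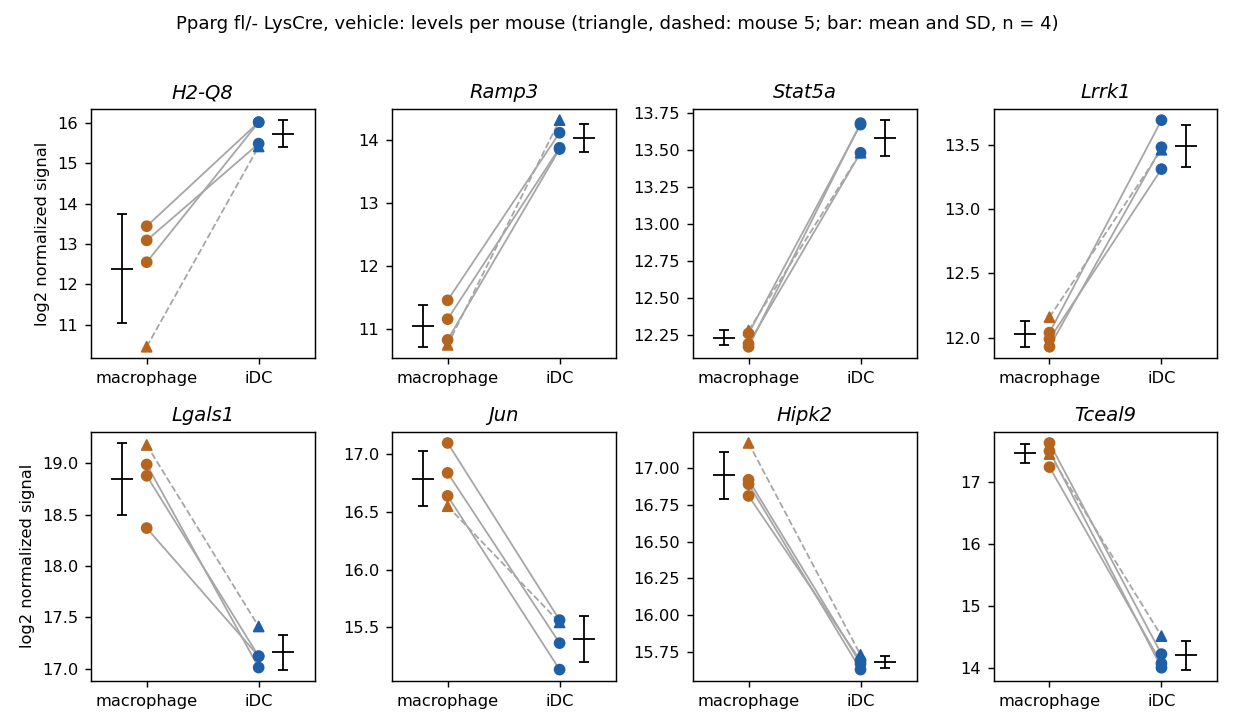
Log2 normalized signal of 4 genes higher and 4 genes lower in iDCs than in macrophages of Pparg fl/- mice, with a line joining the arrays of a mouse (mouse 5 dashed, triangles) and bars for the mean and SD of 4 arrays. Each panel has its own scale. In all 8 panels the 4 lines run the same way, and H2-Q8 in macrophages of mouse 5 (10.46) is the point farthest from its group.

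Sgms2, a sphingomyelin synthase and the only tested member of the 29 genes listed for PPARg targets and lipid handling, was 2.07-fold higher in iDCs. Its levels were 11.36, 12.95, 12.59 and 12.36 in macrophages and 13.57, 13.46, 13.3 and 13.15 in iDCs. Mouse 5 showed the widest gap, and the difference was 1.05 with it and 0.67 without it, called in both cases. Among regulators of protein turnover, the ubiquitin ligase genes Trim59 and Trim34a were 3.43-fold and 2.36-fold higher (limma adjusted p = 5e-05 and 9.3e-06). Trim59 levels were 11.37, 9.82, 9.72 and 9.88 in macrophages and 12.43, 12.05, 11.81 and 11.61 in iDCs, and the macrophage value of mouse 5 was the one apart. Among regulators of transcription and RNA, Nupr1l, Gbx1, Alkbh5 and Zkscan17 were 2.45-fold, 1.87-fold, 1.76-fold and 1.58-fold higher. Nupr1l was detected on 3 of 4 macrophage arrays. Gbx1 was not called without mouse 6 (0.76, limma adjusted p = 0.072). Within scan days 3 and 4 alone, Alkbh5 was not called (0.78 and 0.85, limma adjusted p = 0.099 and 0.065). Nupr1l is a stress-response regulator, Gbx1 a homeobox gene, Alkbh5 a demethylase of N6-methyladenosine in RNA, and Zkscan17 a zinc finger gene. For Zkscan17 the levels were within 12.7 to 12.88 in macrophages and 13.38 to 13.55 in iDCs, and its rise fell short of 1.5-fold with median scaling (0.45). The predicted genes C130026I21Rik and C130050O18Rik were 3.38-fold and 3.04-fold higher.

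Nlrp3, the sensor of the inflammasome that processes IL-1b, did not pass the test. It was detected on 1 of 4 macrophage arrays and on all 4 iDC arrays, at 7.71, 7.41, 8.39 and 8.39 in macrophages and 9.4, 9.26, 9.62 and 8.49 in iDCs. The groups did not overlap, though the iDC value of mouse 8 was next to the highest macrophage values, and the difference of 1.22 ± 0.51 SE had a limma adjusted p of 0.058. It lay near the threshold: 9 alternatives called it, among them median scaling (limma adjusted p = 0.045), the mouse as a block (0.033), the methods' t-test with adjustment and the fit without mouse 8 (0.032), while it was not called without mouse 5, 6 or 7 (limma adjusted p = 0.19, 0.23 and 0.15). Lst1, a leukocyte membrane protein, and Bcl2a1b, a member of an antiapoptotic family with near-identical copies, completed the called rises with groups that overlapped. Lst1 had 12.07, 10.65, 11.72 and 11.44 in macrophages and 11.67, 12.55, 12.73 and 13.42 in iDCs (1.12 ± 0.42 SE, limma adjusted p = 0.034), with mouse 5 running the other way, and was not called with median scaling (0.93, limma adjusted p = 0.092) or without mouse 6, 7 or 8 (limma adjusted p = 0.18, 0.066 and 0.2). Bcl2a1b had 19.19 to 19.73 in macrophages and 19.73 to 20.56 in iDCs, and was not called without mouse 5 (0.44, limma adjusted p = 0.091) or with median scaling (0.58, below 1.5-fold).

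Genes lower in iDCs included a galectin, a part of the transcription factor AP-1, histone genes and an RNA sensor. Lgals1, which encodes the secreted galectin-1, had levels of 19.18, 18.99, 18.37 and 18.88 in macrophages and 17.41, 17.01, 17.12 and 17.12 in iDCs. This is 3.22-fold lower in iDCs, with no overlap (-1.69 ± 0.17 SE, limma adjusted p = 7.4e-09). Lgals7, the gene of another galectin, was also lower in iDCs (-0.92 ± 0.29 SE, limma adjusted p = 0.013; 0.094 without mouse 6 and 0.067 without mouse 8). Of 30 genes listed for adhesion, matrix and cytoskeleton, Lgals1 and Sfrp4 were tested, and 1 was called lower.

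Jun, a subunit of AP-1, had levels of 16.55, 17.1, 16.84 and 16.64 in macrophages and 15.54, 15.56, 15.36 and 15.13 in iDCs, 2.62-fold lower (-1.39 ± 0.13 SE, limma adjusted p = 1.2e-09). Hipk2, a nuclear kinase that acts on p53 and other regulators, was 2.41-fold lower, from 16.81 to 17.17 in macrophages and from 15.63 to 15.73 in iDCs (-1.27 ± 0.11 SE, limma adjusted p = 1e-09). Both had tight replicates and groups that stayed apart. The histone H2B gene H2bc13 had levels of 16.5, 17.04, 16.93 and 17.37 in macrophages and 14.92, 14.8, 15.0 and 14.47 in iDCs, 4.49-fold lower (-2.17 ± 0.19 SE, limma adjusted p = 5.4e-10). H2bc18 was lower by a smaller amount (-0.84 ± 0.14 SE, limma adjusted p = 2.4e-05), and since H2B genes are near copies, either probe may read several of them.

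Tlr7, the endosomal receptor for single-stranded RNA, had levels of 12.02, 11.88, 12.55 and 12.14 in macrophages and 11.61, 10.65, 11.12 and 10.71 in iDCs. It was 2.19-fold lower in iDCs with no overlap, and mouse 5 had the smallest gap (-1.13 ± 0.23 SE with it, limma adjusted p = 0.00022; -1.37 without it). Tlr7 and Nlrp3 were the 2 tested of 32 genes listed for innate sensing, of which 1 was called lower. Epdr1, a lysosomal lipid-binding protein and the only tested member of 32 lysosome and protease genes, was at 9.4, 10.53, 9.97 and 9.78 in macrophages and at 9.06, 7.98, 9.12 and 7.26 in iDCs, where 2 of 4 arrays detected it. Its lower level in iDCs was called (-1.57 ± 0.41 SE, limma adjusted p = 0.0029), but not without mouse 6 (limma adjusted p = 0.053). Tnfsf13, which encodes the B cell growth factor APRIL and was the only tested one of 36 chemokine, cytokine and receptor genes, was lower in all 4 mice, from 14.65 to 14.9 in macrophages and 14.06 to 14.49 in iDCs. Its difference of -0.47 fell short of 1.5-fold (limma adjusted p = 0.0026), and reached it with median scaling (-0.70).

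The largest fitted fall among genes with a symbol was that of 1110032E23Rik, with levels of 13.51, 12.99, 13.43 and 13.03 in macrophages and 8.91, 7.6, 7.6 and 7.52 in iDCs. It was detected on 1 of the 4 iDC arrays, that of mouse 5 being the highest, and the means differed by -5.33 ± 0.37 SE (limma adjusted p = 6.7e-12), a size that rests on iDC levels below detection. Tceal9, a member of the transcription elongation factor A-like family, was bright in both and 9.56-fold lower in iDCs, from 17.24 to 17.63 in macrophages and 14.0 to 14.51 in iDCs (limma adjusted p = 1.8e-13). Pcdha3, a protocadherin of cell adhesion, was detected on all 4 macrophage arrays and on none of the 4 iDC arrays. Its macrophage levels of 9.81 to 10.49 lay 7.71-fold above the iDC signals (limma adjusted p = 5.3e-06). Where no array of a group detected a probe, the fold used the probe's own signal there. The lowest signal of any detected probe on the array replaced it where that was higher. Levels below detection are uncertain, so such folds are not lower bounds.

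Other genes lower in iDCs had varied roles. Nt5dc3, of the 5'-nucleotidase domain family, and Acyp2, an acylphosphatase, were 3.17-fold and 2.85-fold lower (limma adjusted p = 0.0001 and 7.4e-05), and Trmt61a, a subunit of a tRNA methyltransferase, was 2.31-fold lower (limma adjusted p = 0.00012). Rtl6, a gene derived from a retrotransposon, and the unnamed transcript 2700081O15Rik were lower too. Rtl6 was 2.66-fold lower, and like Acyp2 it was detected on 3 of 4 iDC arrays. 2700081O15Rik had 9.15 to 9.63 in macrophages and 6.73 to 8.53 in iDCs, where 1 of 4 arrays detected it (-1.67 ± 0.40 SE, limma adjusted p = 0.0014), so the size of its fall rests on levels below detection. Paqr9, of the progestin and adipoQ receptor family, was detected on 2 of 4 macrophage arrays and no iDC array, with levels of 7.46, 8.22, 7.83 and 9.12 in macrophages and 7.06 to 7.28 in iDCs. Most of these lie below detection, so no fold is given for this called fall, and the call was lost without mouse 8 (limma adjusted p = 0.11). The remaining called falls were of 0.59 to 0.91 on the log2 scale, in Rap2b, a Ras-like GTPase, Crip1, Cd99, Tmem251, Atox1, a copper chaperone, Mblac1, Rraga, a GTPase of nutrient sensing by mTORC1, and Teddm1a. Crip1 and Atox1 each had the highest macrophage value in mouse 5 (19.02 and 18.99) and fell below 1.5-fold without it (-0.49 and -0.47). Rraga fell below 1.5-fold without mouse 6 (-0.55), and Teddm1a was not called without mouse 6 or 7 (limma adjusted p = 0.093 and 0.16).

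**Figure D3:**
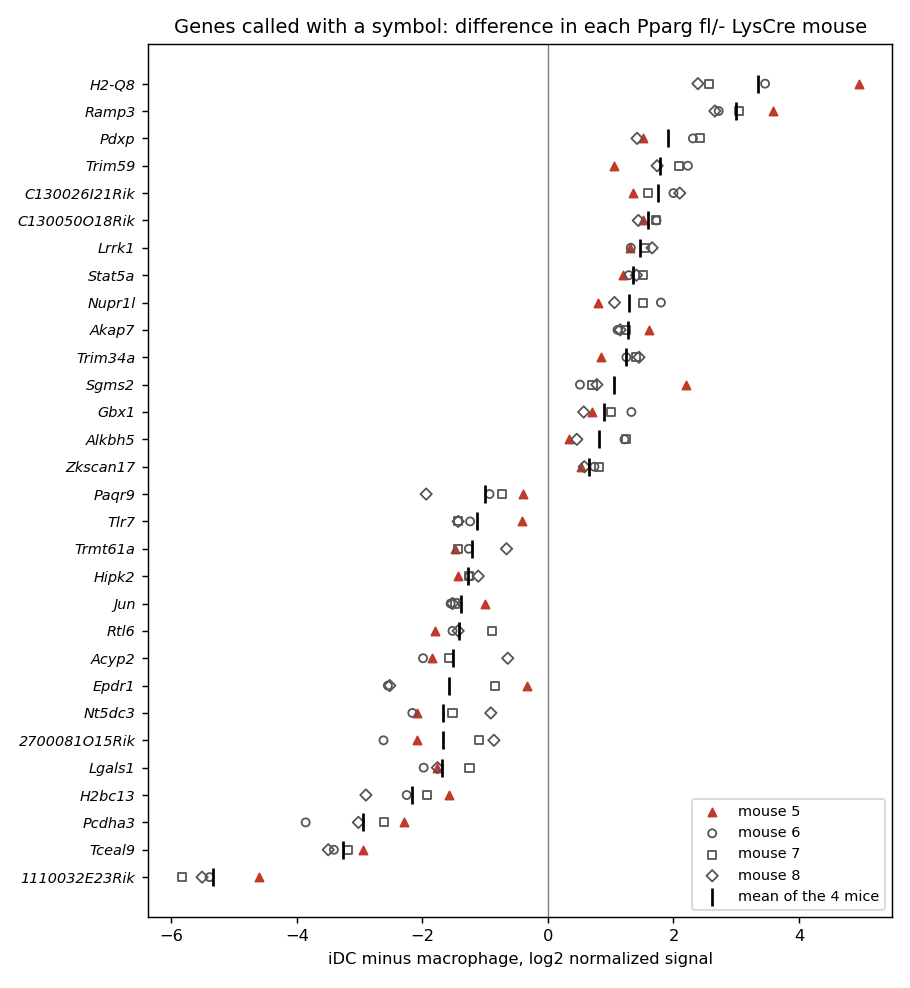
The iDC minus macrophage difference (log2 normalized signal) in each of Pparg fl/- mice 5 to 8 for the 15 genes that rose most and the 15 that fell most among those called, with a symbol and with groups that did not overlap; the bar is the mean of the 4 mice. All points of a gene lie on 1 side of 0, which the choice of groups without overlap fixes. The means run from 1110032E23Rik (-5.33) to H2-Q8 (3.34), and mouse 5 (triangle) is the lowest or the highest of the 4 for 23 of the 30 genes, against 13, 8 and 17 for mice 6, 7 and 8.

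Short stretches before the start sites of called genes are shown for the letters they hold of factors that act in these cells, AP-1, whose subunit Jun was lower in iDCs, and PU.1, a master regulator of myeloid cells. Sequences of 250 bases before each start site are from RefSeq (GRCm38.p6), whose table held 15 genes called higher and 19 called lower. The letters searched, on both strands, were TGANTCA for AP-1, GAGGAAGT for PU.1, TTCNNNGAA for STAT5 and TTCNNNNGAA for STAT6, the last 2 of which share their outer letters and differ in the gap. Capitals mark AP-1 and PU.1 letters. The first 2 sequences belong to genes called higher and the last to a gene called lower, and the bases run from 5' to 3' on the strand of the gene.
Bcl2a1b, chr9:89199023-89199272, plus strand: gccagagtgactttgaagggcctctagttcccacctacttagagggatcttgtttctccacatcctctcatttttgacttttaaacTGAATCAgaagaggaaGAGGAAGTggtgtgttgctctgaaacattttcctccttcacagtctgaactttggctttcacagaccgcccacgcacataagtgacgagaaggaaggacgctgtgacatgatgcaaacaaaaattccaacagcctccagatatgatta
Nupr1l, chr5:129908290-129908539, plus strand: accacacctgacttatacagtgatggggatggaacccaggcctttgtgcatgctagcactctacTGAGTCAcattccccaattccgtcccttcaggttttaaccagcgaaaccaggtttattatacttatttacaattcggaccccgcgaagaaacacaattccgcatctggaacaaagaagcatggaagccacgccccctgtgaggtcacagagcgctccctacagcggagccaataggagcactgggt
H2bc13, chr13:21716184-21716433, minus strand: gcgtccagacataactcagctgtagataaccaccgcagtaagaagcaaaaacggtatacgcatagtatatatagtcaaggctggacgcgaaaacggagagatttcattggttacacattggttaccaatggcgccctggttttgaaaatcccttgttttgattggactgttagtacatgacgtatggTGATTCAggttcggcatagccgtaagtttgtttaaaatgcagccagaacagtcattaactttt
The AP-1 letters begin 164, 186 and 63 bases before the start in Bcl2a1b, Nupr1l and H2bc13, and the PU.1 letters 148 bases before it in Bcl2a1b.

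The AP-1 letters stood in 4 of 22 windows of genes called higher (Bcl2a1b, Nupr1l and Sgms2), in 1 of 21 windows of genes called lower (H2bc13) and in 6.75% of all 32851 windows. Counted by gene this was 3 of 15 called higher and 1 of 19 called lower, since Sgms2 had several windows. The PU.1 letters stood in 1 window of genes called higher and 0 of genes called lower, against 2.44% of all windows. STAT5 letters stood in 1 window of either set (Sgms2 and Rraga) against 7.02%, and STAT6 letters in 0 of either set against 5.85%. Over the 153 windows of tested genes with a symbol the shares were 6.54% for AP-1, 1.96% for PU.1, 4.58% for STAT5 and 3.92% for STAT6. These are descriptions of few windows and mark no binding site.

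The largest differences of all were in probes without a symbol. Probe mCG19855.3 had levels of 6.91, 11.0, 9.94 and 7.66 in macrophages and 19.1, 18.6, 18.41 and 17.53 in iDCs, with 2 of 4 macrophage arrays detected. The difference in means was 9.54 with all mice, 8.65 without mouse 5 and 10.18 without mouse 6. Probes mCG1032064.1 and mCG130182.1 were detected on no macrophage array and on all 4 iDC arrays. Their iDC signals were 673-fold and 542-fold higher, sizes that rest on macrophage levels below detection. The difference for the first moved from 9.39 to 8.72 without mouse 5. In the other direction, mCG114173 had 18.21 to 18.86 in macrophages and was detected on no iDC array. Its macrophage signals were 3080-fold higher, a size that rests on iDC levels below detection. Probes mCG6775.1 and mCG21620.2 differed by -7.55 and -6.96, where 2 of 4 iDC arrays detected each and the sizes rest in part on levels below detection. Across all 33012 probes, 114 were detected on every iDC and no macrophage array, and 168 on every macrophage and no iDC array. In Pparg+/- mice 40 of the 114 and 51 of the 168 had the same pattern, and 69 and 104 had it when 1 array of each group could depart from it. These counts rest on a threshold in each array, and 11279 probes were detected on all 8 arrays.

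Markers of other cells were few. The erythroid genes Hba-a1 and Eraf were the tested ones of 23 erythroid, stromal and endothelial markers, and Ear1, an eosinophil-associated ribonuclease that myeloid cells also express, of 39 granulocyte, eosinophil and mast cell markers. None was called. Hba-a1, the gene of alpha-globin, had 8.59, 12.43, 12.67 and 12.21 in macrophages and 8.57, 10.38, 11.09 and 9.59 in iDCs, where mouse 5 was lowest in both. Its difference was -1.57 ± 0.86 SE with all mice (limma adjusted p = 0.16; 0.0023 with the mouse as a block) and -2.08 without mouse 5 (limma adjusted p = 0.00057). Eraf was detected on no macrophage array and 2 iDC arrays. No lymphoid marker had a probe with a symbol, and the part of other cells in the results was not tested.

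Cell type differences in the other genotype were compared with those of Pparg fl/- cells by a test of the difference itself. In Pparg+/- cells 4796 probes were called (28.9%; 13.5% higher and 15.4% lower in iDCs), and 2947 were called in the same direction in both genotypes, which is 64.2% of the Pparg fl/- calls and 61.4% of the Pparg+/- calls. Of the 4588 Pparg fl/- calls, 4287 (93.4%) had the same sign in Pparg+/- cells, where 74.3% of all tested probes had, and 21 were called in opposite directions. Without mouse 5, 2835 calls were made in the same direction in both genotypes (57.3% of 4947 in Pparg fl/- and 55.9% of 5069 in Pparg+/- cells), 87.5% of the Pparg fl/- calls had the same sign against 70.8% of all tested probes, and 123 were called in opposite directions. Across the 16620 probes Pearson's r of the log2 differences was 0.80 between genotypes (0.74 without mouse 5), as a description over probes, which are not independent and were normalized together. The difference between genotypes was called for 888 probes (5.34%), 335 (2.02%) more positive and 553 (3.33%) more negative in Pparg fl/- cells. This count depended on the processing: it was 1455 with the mouse as a block, 533 with median scaling (144 and 389), 355 with no detection filter and 31 by the methods' t-test with adjustment.

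Mouse 5 decided much of that number. Without it, 2556 probes (15.4%) were called between genotypes, among them 884 of the 888. Of the Pparg fl/- calls, 4137 (90.2%) were not called as different between genotypes with all mice, and 3501 (70.8% of 4947) without mouse 5. A probe that was not called may still differ. With any of the other 7 mice left out, the count was between 231 (without mouse 8) and 327 (without mouse 2), so each mouse moved it by more than 1.5 times. The scan day held mice of 1 genotype only, so day and genotype cannot be told apart.

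**Figure D4:**
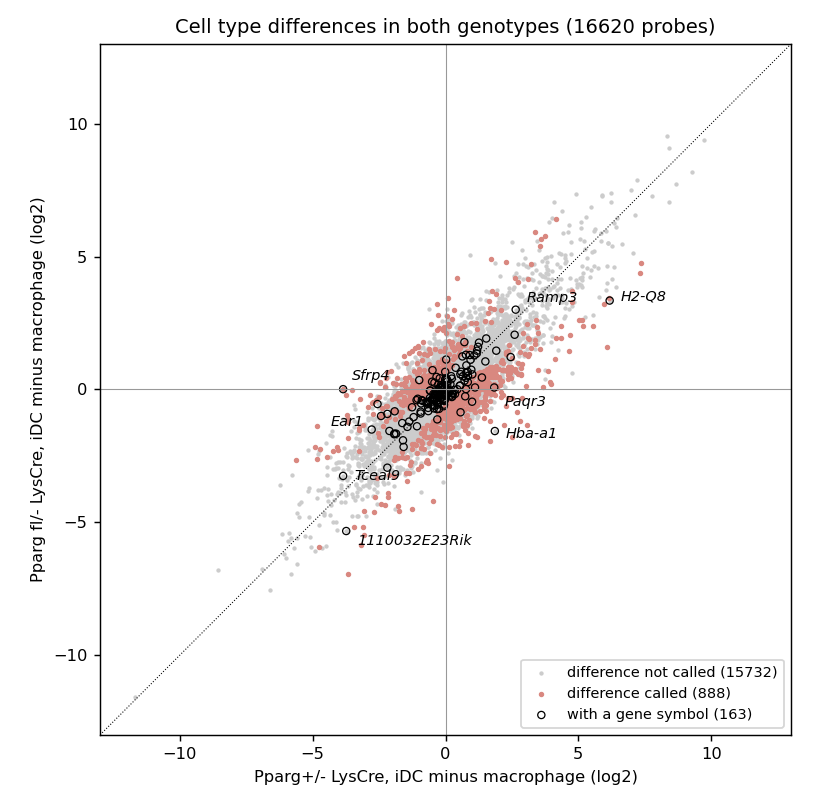
The iDC minus macrophage difference (log2) of 16620 probes in Pparg+/- (horizontal axis) and Pparg fl/- mice (vertical axis), with equal values on the dotted line. Red points are the 888 probes called as different between genotypes and open circles the 163 probes with a symbol. Most points follow the line (r = 0.80 across probes), while Sfrp4, which no iDC array of either genotype detected, lies well below 0 in Pparg+/- cells and near 0 in Pparg fl/- cells with all mice.

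For the genes with a symbol, 15 of the 18 higher in iDCs and 20 of the 25 lower were called in the same direction in Pparg+/- cells, where 64.2% of all Pparg fl/- calls were, and the other 8 had the same sign. With all mice 4 of 163 probes with a symbol (2.45%) were called as different between genotypes, against 5.34% of all tested probes, and none of the 43 was, against 9.83% of the 4588 Pparg fl/- calls. Without mouse 5, 28 of 163 were called (17.2%), against 15.4% of all tested probes. Of the 43, 12 were called, where 25.5% of the 4588 were, a share of similar size. The 12 were H2-Q8, Trim59, Trim34a, Sgms2, Lst1, Tlr7, Acyp2, H2bc13, 1110032E23Rik, Cd99, Crip1 and Atox1. Ramp3 (2.64), Stat5a (1.17), Lrrk1 (1.19), Hipk2 (-1.63), Jun (-1.08), Lgals1 (-1.93) and Tceal9 (-3.86) had called differences in Pparg+/- cells too. Of these genes none was called between genotypes with or without mouse 5, though Tceal9 was with the mouse as a block. Hipk2 missed the call without mouse 5 only by size (0.42, below 1.5-fold, limma adjusted p = 0.046). The 8 called only in Pparg fl/- cells were Trim59, Lst1 and Alkbh5 among the rises and Tlr7, Cd99, Rraga, Mblac1 and Teddm1a among the falls. Between genotypes, Trim59, Lst1, Tlr7 and Cd99 were called without mouse 5 (limma adjusted p = 0.0019, 0.024, 0.015 and 0.018) and not with it (0.15, 0.29, 0.13 and 0.12). With the mouse as a block and all mice kept, 9 of the 43 were called, where 1455 of 16620 probes (8.75%) and 15.8% of the 4588 were, among them Trim59 (0.034), Tlr7 (0.046), 1110032E23Rik (0.035), Acyp2 (0.011), Crip1 (0.044), Lgals7 (0.016), Paqr9 (0.029) and Tceal9 (0.05).

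The 4 probes with a symbol that were called between genotypes were called between cell types in Pparg+/- and not in Pparg fl/- mice. Sfrp4, a secreted inhibitor of Wnt signals, had 12.55, 11.64, 10.08 and 10.6 in Pparg+/- macrophages. It was detected on no Pparg+/- iDC array, and the macrophage signals were 14.5-fold higher. In Pparg fl/- cells it was detected on 1 of 4 macrophage arrays and no iDC array, with 6.02, 9.48, 8.81 and 6.63 in macrophages and 7.16 to 8.92 in iDCs. The macrophages of the genotypes did not overlap, and the fitted cell type effects differed by 3.86 ± 0.96 SE, a size that rests on levels below detection in 3 of the 4 groups (limma adjusted p = 0.018 with all mice, 0.039 and a difference of 2.90 without mouse 5). It was not called without mouse 1, 2, 4 or 8 (limma adjusted p = 0.064, 0.061, 0.055 and 0.093), and the difference was 3.25 without mouse 1 and 4.56 without mouse 6. Its fitted difference within Pparg fl/- cells was not called and moved from 0.01 with all mice to -0.96 without mouse 5 and 0.71 without mouse 6.

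Paqr3, a Golgi protein of the progestin and adipoQ receptor family, had 9.15 to 9.96 in Pparg+/- macrophages and 11.4 to 11.57 in Pparg+/- iDCs. In Pparg fl/- macrophages it had 9.78, 11.4, 11.3 and 10.8, and in iDCs 10.99, 11.08, 11.05 and 10.45. Of these mice only mouse 5 was higher in iDCs, by 1.21, where the Pparg+/- mice had a mean difference of 1.83. The effects differed by -1.76 ± 0.46 SE (limma adjusted p = 0.023 with all mice and 0.0001 without mouse 5). Without any one of the other 7 mice it was not called (limma adjusted p = 0.055 to 0.11), though the difference stayed at -1.56 to -1.89. Zbtb18, a zinc finger repressor, showed the same layout, with 14.67 to 14.98 in Pparg+/- macrophages against 14.89, 16.04, 16.08 and 15.77 in Pparg fl/- macrophages, and 15.61 to 16.02 in the iDCs of both genotypes (-1.04 ± 0.31 SE, limma adjusted p = 0.043 with all mice and 3.9e-05 without mouse 5). It was not called without any one of the other 7 mice (limma adjusted p = 0.093 to 0.17) or with median scaling. The difference stayed at -0.88 to -1.09 without a mouse and was -1.01 with median scaling.

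Cebpb, a transcription factor of myeloid differentiation, had 2 probes. Probe 640455 had 14.43 to 14.72 in macrophages and 15.8 to 16.12 in iDCs of Pparg+/- mice, and 14.43, 15.06, 15.0 and 15.03 in macrophages and 15.68, 15.15, 15.39 and 15.1 in iDCs of Pparg fl/- mice. The gap was smaller in Pparg fl/- cells, by 0.92 ± 0.28 SE (limma adjusted p = 0.047 with all mice, 0.058 with the mouse as a block, and 0.00012 without mouse 5), and it was not called with median scaling or without any one of the other 7 mice (limma adjusted p = 0.1 to 0.18). The difference was -0.92 with median scaling and -0.8 to -1.0 without 1 of these mice. The other, 450590, differed by -0.39 ± 0.23 SE (limma adjusted p = 0.34 with all mice and 0.23 with the mouse as a block). It was called without mouse 5 (-0.65, limma adjusted p = 0.002). Neither probe was called between the cell types of Pparg fl/- mice (0.45 and 0.33, limma adjusted p = 0.071 and 0.11). Of 31 transcription factors listed for myeloid cells, the tested ones were Cebpb, Zbtb18 and Lhx2, and none was called in Pparg fl/- cells. Lhx2 was detected on none of the 8 arrays.

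Other genes were not called between genotypes with all mice, but were called without mouse 5 and with the mouse as a block. H2-Q8 was detected on no Pparg+/- macrophage array (9.05 to 9.69) and had 15.36 to 15.62 in Pparg+/- iDCs, a signal 72.3-fold higher. Its gap in Pparg fl/- cells differed by -2.83 ± 0.88 SE (limma adjusted p = 0.053 with all mice, 0.012 with the block and 9.2e-06 without mouse 5), a size that rests on Pparg+/- macrophage levels below detection. Ear1 had 17.37 to 17.66 in Pparg+/- macrophages and 17.2, 14.64, 14.59 and 15.24 in Pparg fl/- macrophages, where mouse 5 lay near the Pparg+/- values, and 14.21 to 15.59 in all iDCs. Its effects differed by 2.01 ± 0.62 SE (limma adjusted p = 0.051; 0.015 with the block; 0.00044 without mouse 5). Hba-a1 was detected on no Pparg+/- macrophage array (7.92 to 8.27), and its effects differed by -3.42 ± 1.22 SE (limma adjusted p = 0.093 with all mice, 0.0021 with the block and 5.3e-05 without mouse 5). This size, too, rests on Pparg+/- macrophage levels below detection. In all 3 genes the macrophages of mouse 5 were the ones nearest to the Pparg+/- macrophages.

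**Figure D5:**
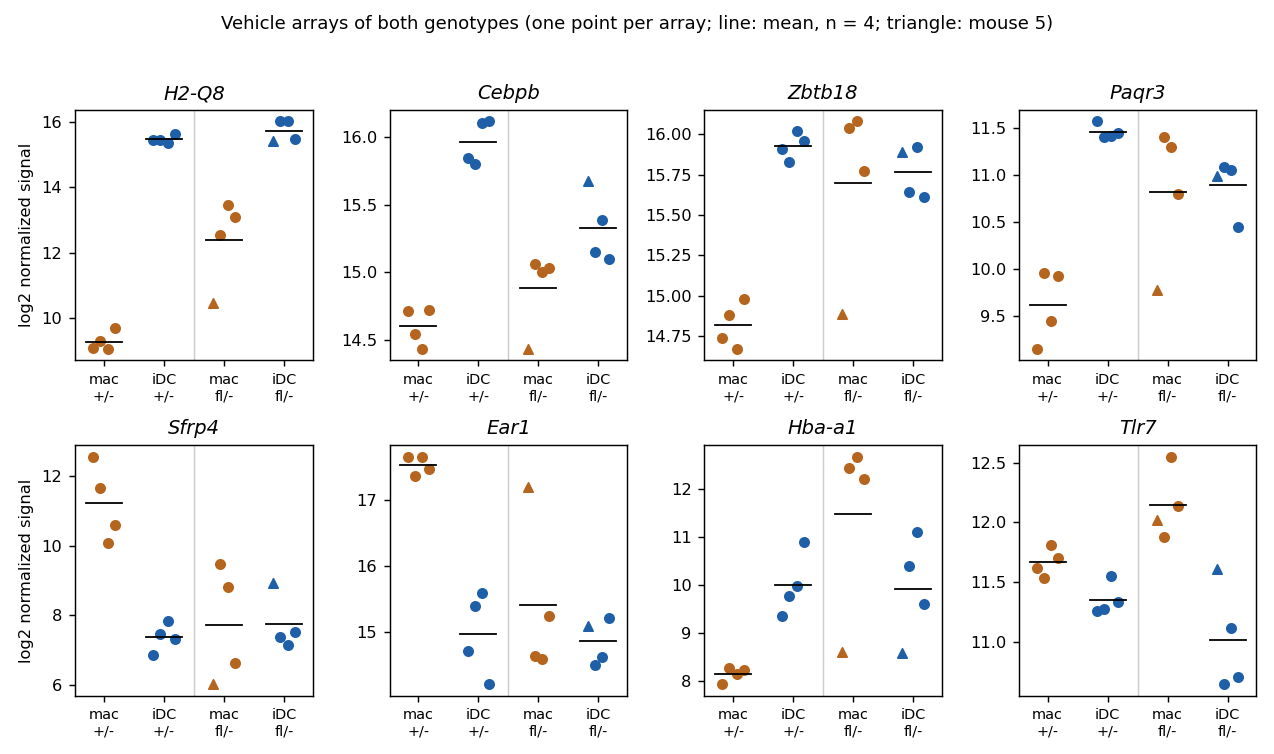
Log2 normalized signal of 8 genes in each vehicle array (mac, macrophage; +/-, Pparg+/- mice 1 to 4; fl/-, Pparg fl/- mice 5 to 8), with lines at the mean of 4 and triangles for mouse 5; each panel has its own scale, and Cebpb is probe 640455. Points near 8 or below for Sfrp4 and for Hba-a1 are mostly below detection. In Zbtb18, Paqr3, Ear1 and Hba-a1 the macrophages of mouse 5 (14.89, 9.78, 17.2 and 8.59) lie with those of the Pparg+/- mice.

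Probes without a symbol also differed between genotypes. Probe mCG7636.2 had 10.22 to 11.46 in macrophages and 16.74 to 16.9 in iDCs of Pparg+/- mice, while macrophages of Pparg fl/- mice had 10.92, 15.75, 15.58 and 15.56 and their iDCs 15.43 to 16.45 (difference -4.47, limma adjusted p = 0.016, against -5.78 and 3.8e-10 without mouse 5). The call was lost without any one of the other 7 mice (limma adjusted p = 0.054 to 0.1), at differences of -3.89 to -4.69. Probe mCG18124.2 was higher in iDCs of Pparg+/- mice (3.06) and had a difference of -1.34 in Pparg fl/- mice that was not called with all mice (limma adjusted p = 0.062, against 0.044 with the mouse as a block, and -1.76 and 0.0062 without mouse 5), and the genotypes differed by -4.40 (limma adjusted p = 0.0039, and 1.8e-05 without mouse 5). It was detected on 1 of 4 Pparg+/- macrophage arrays and 1 of 4 Pparg fl/- iDC arrays, so these sizes rest on levels below detection in both groups. In the other direction, mCG18018.1 and mCG1037763 were higher in iDCs of Pparg fl/- mice (4.18 and 3.19, the first detected on 2 of 4 macrophage arrays), with differences of 0.44 and -0.31 that were not called in Pparg+/- mice (limma adjusted p = 0.013 and 0.0049 between genotypes; 0.0037 and 6.4e-05 without mouse 5), and mCG18018.1 was not called without mouse 2, 7 or 8 (limma adjusted p = 0.066, 0.063 and 0.095). For mCG7037.3 and mCG5304.2, macrophages were higher in Pparg+/- mice, 10.6-fold for the first, whose iDC levels there lay below detection. In Pparg fl/- mice the first was detected on no array and the second on 2 of 4 arrays of either cell type. Their calls between genotypes (limma adjusted p = 0.022 and 0.049; 0.0021 and 0.034 without mouse 5) were lost without mouse 1, 2, 4, 6 or 8 for the first (limma adjusted p = 0.069 to 0.11) and without any one of the other 7 mice or with median scaling for the second (limma adjusted p = 0.072 to 0.17). The large fall of mCG21620.2 was deeper in Pparg fl/- than in Pparg+/- cells (difference -3.29 on the log2 scale, limma adjusted p = 0.0059; 0.00084 without mouse 5).

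Cultures of the same 4 mice that received RSG gave 4090 called probes (24.6%; 12% higher and 12.6% lower in iDCs) between cell types, of which 3259 were called in the same direction with vehicle. This is 71.0% of the vehicle calls and 79.7% of the RSG calls, and 2 probes were called in opposite directions. Of the genes with a symbol, 15 of the 18 rises and 22 of the 25 falls were called again with RSG, and the other 6 had the same sign. H2-Q8 (3.81), Ramp3 (2.76), Stat5a (1.25), Lgals1 (-2.01), Jun (-1.08) and Tlr7 (-1.03) were among those called. Akap7, Lst1, Bcl2a1b, Cd99, Mblac1 and Tmem251 were not. Nlrp3, which was not called with vehicle, was called with RSG (1.42). The cultures share mice with the vehicle arrays, so they repeat the culture and the array and not the animal.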

How the data were processed

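RNA of 32 bone marrow cultures was measured on single-color chemiluminescence arrays, of which 8 carry the main comparison. Per the file headers, the authors deposited for each array a background-corrected signal intensity per probe, a signal-to-noise score (S/N), an assay-normalized signal intensity and flags, and, for all arrays, a table of ratio values (linear; which statistic scaled each array is unknown, column medians 0.951 to 1.06). Where the S/N was 1 or less (35.8% to 43.9% of probes per array), 99.9% of deposited signals equalled their own standard deviation and are noise. No scaling between arrays was stated in the sources used here for the signals.

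Noncontrol signals were log2 transformed and quantile normalized over all 32 arrays (limma 3.58.1, R 4.3.3). Probes with S/N of at least 3 on at least 3 of 4 arrays of a group were tested (16620 of 33012). lmFit and eBayes were fitted with a mean per group over all arrays, and a call needed a Benjamini-Hochberg adjusted p under 0.05 and 1.5-fold. Probes were named through RefSeq accessions of assembly GRCm38.p6 (311) or supplementary tables (8). The model was also run on simulated data in which the changed probes were known. Python 3.11.15 made the tables and figures.

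Per the labels, iDC and macrophage arrays that share a number were made from 1 animal. Deviations of the iDC and macrophage arrays from their group means correlated by 0.290, 0.218, 0.503 and 0.0661 in mice 5 to 8, against a median of -0.131 between different mice. The mouse was left out of the main model, which thus ignores this pairing, and was fitted as a block as an alternative. The genes described were the tested members of lists of genes for these cells, the 15 largest rises and falls with a symbol and groups that did not overlap, the 3 largest of each among all probes and at most 5 in each direction between genotypes. The 13 other called genes with a symbol and the genes singled out from them were added after their values were seen. The comparison, the lists and the genes were chosen with earlier results of these data known. The methods' thresholds and t-test are given for another array platform. The alternatives were other scaling, starting values, filters, thresholds, tests, array sets, blocks and leaving out each mouse.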

Additional observations from a re-analysis of the deposited data

Results flagged for a closer look

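Mouse 5 was the one animal far from the others of its group. On probes called in the fit without it, its own iDC minus macrophage difference had the same sign in 88.9% of cases, against 96.7% to 97.8% for mice 6, 7 and 8, and the gap took 0.872 of the range over the 4 mice. Its median difference was 0.95 on probes called higher and -0.82 on probes called lower, where the other 3 mice had 1.26 and -1.20. The probes were called on those other mice, which by itself favours larger values in them. Mice 6, 7 and 8, each held out in turn, had 1.20, 1.26 and 1.19 against 1.38, 1.37 and 1.34 on probes called higher. On probes called lower they had -1.16, -1.09 and -1.18 against -1.18, -1.20 and -1.17. On the scale between genotypes the gap to the next mouse took 0.849 of the range. These gaps are larger than the 95% limit of Dixon's test for 4 values, which assumes independent values on the same scale. Here each mouse was scored on a different set of probes, chosen with the other mice. The limit therefore served only to flag these gaps and gives no significance level for mouse 5. The median signal of the macrophage array of mouse 6 (460.61) lay above the others (341.61 to 349.705), with a gap of 0.932 of the range.

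Of 136 groups of 4 values of 68 described probes, 12 had a value as far from the rest, where chance gives about 1 in 20. Mouse 5 was the distant one in macrophages for Trim59 (0.905), mCG7636.2 (0.960), Cebpb probe 640455 (0.908), Hba-a1 (0.886), Crip1 (0.893) and Atox1 (0.851), and in iDCs for Mblac1 (0.842), Cebpb probe 450590 (0.880) and 1110032E23Rik (0.943). For Paqr3 in iDCs (0.856) it was mouse 8, for Nt5dc3 in iDCs (0.871) mouse 6, and for mCG114173 in macrophages (0.856) mouse 7.

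The cell type effect differed between genotypes, by limma's test of the difference itself, for 888 probes. Those described had differences (log2, Pparg fl/- minus Pparg+/-) of 3.86 for Sfrp4, 3.75 for mCG18018.1, 3.52 for mCG7037.3, 3.5 for mCG1037763, 3.5 for mCG5304.2, -0.92 for Cebpb probe 640455, -1.04 for Zbtb18, -1.76 for Paqr3, -3.29 for mCG21620.2, -4.40 for mCG18124.2 and -4.47 for mCG7636.2. All of these sizes but those of Cebpb, Zbtb18, Paqr3 and mCG7636.2 rest at least in part on levels below detection.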

How the results depend on the processing

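The number of called probes in Pparg fl/- cells (4588) stayed within 1.5 times under every alternative that was run but the 2-fold threshold, which left 2867, and it was 4083 to 4947 with each Pparg fl/- mouse left out. Within scan day 3 and day 4, it was 3538 and 3829. In Pparg+/- cells the 2-fold threshold left 2963 of 4796 and leaving out a mouse gave 4348 to 5069. In RSG-treated Pparg fl/- cells it left 2549 of 4090, the methods' t-test with adjustment 2621, and leaving out a mouse gave 3590 to 4464. The difference between genotypes (888) was less stable. It was 533 with median scaling, 535 with the authors' ratios, 355 with no detection filter, which tests more probes, 537 at 2-fold, 31 by the methods' t-test with adjustment and 2121 without it. With the mouse as a replicate block it was 1455, and 2777 when mouse 5 was also left out, an alternative chosen after seeing the data. Leaving out a mouse gave 231 to 2556. The cause was not tested. The block moved no other count by over 1.5 times; among genes with a symbol it added 3 calls in Pparg fl/- cells and lost 0, and between genotypes it added 13 and lost 1. The 16 vehicle arrays give no value for the RSG-treated cells.

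No call of the 68 described probes in Pparg fl/- cells changed direction. Of 1496 combinations of these probes and an alternative, 92 lost a call (22 probes) and 26 gained one (6 probes), and 40 of 68 probes kept their side of the threshold throughout. Between genotypes, all 11 described probes with a call lost it under at least 1 alternative (75 of 264), as Sfrp4 did without mouse 1, 2, 4 or 8 (limma adjusted p = 0.064, 0.061, 0.055 and 0.093). Paqr3, Zbtb18 and Cebpb lost it without any one of the mice other than mouse 5 (limma adjusted p = 0.055 to 0.18), at differences about as large as with all mice. For mCG18018.1, mCG7037.3 and mCG5304.2 the differences at calls lost without a mouse were 3.2 to 3.49, 2.93 to 3.6 and 3.01 to 4.08. Gbx1 was not called without mouse 6 (limma adjusted p = 0.072), and Eraf was called without it (1.62, limma adjusted p = 0.049). Within single scan days, each with 2 of the mice, Akap7 (limma adjusted p = 0.059 on day 3 and 0.092 on day 4) and Alkbh5 (0.099 and 0.065) were not called on either day, Tlr7 (0.069), Epdr1 (0.067) and Paqr9 (0.28) not on day 3, and Sgms2 (0.14), Gbx1 (0.074) and 2700081O15Rik (0.15) not on day 4. Of the called genes outside the naming rule, Ramp1, Lst1, Bcl2a1b, Teddm1a and Mblac1 were called on neither day, Cd99 and Tmem251 not on day 3, and Atox1, Crip1 and Lgals7 not on day 4. Calls were gained for H2-Q7 on day 3 (0.61, limma adjusted p = 0.02) and for Eraf on day 4 (2.69, limma adjusted p = 0.00066). The size for Eraf rests on macrophage levels below detection. The difference in detected probes was -728 at S/N 3, -799.8 at S/N 2 and -669.8 at S/N 5, and -484 to -914.3 without a mouse. Shares of held-out probes with the same sign (88.9% for mouse 5 and 96.7% to 97.8% for the others) moved little with median scaling or a 2-fold threshold. The precision is limited by 4 arrays per group, and probes near the noise have no reliable level.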
